A study of Mus musculus with 4 samples.

Results

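Mature B cells that carry IgD were described in single-cell RNA sequencing of mouse bone marrow that had been sorted for stem and progenitor cells. The cells were chosen by their own unique molecular identifier (UMI) counts: at least 2 UMIs of Ighd and Fcer2a together, at least 1 UMI of Ms4a1, Bank1, Cd79a and Cd79b together, and at most 2 UMIs of Igll1, Vpreb1 and Vpreb2 together. A barcode also needed at least 1000 gene UMIs, at most 10% mitochondrial UMIs and exactly 1 hashtag with at least 200 counts. The gate held 373 of 26943 cells, 100 of them from surgery replicates and 273 from sham replicates. The 9 gate genes chose the cells, so their levels are given as a description and were not counted in any comparison between cell groups.

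All mice were wild type and had received E0771 mouse breast cancer cells, an established line, 3 days before surgery. The surgery group had the femoral artery tied off, which cuts the main blood flow to the hind limb, and the sham group had a mock operation. Marrow was taken on day 9 after surgery and sorted for cells that lacked lineage markers and carried cKit, whatever their Sca1. Hashtags, oligonucleotide labels put on cells before pooling, marked 4 surgery and 4 sham replicates. Each of 2 PIPseq libraries, called batch 1 and batch 2, held 2 replicates of each group. The treatment label instead calls the batch 1 library ligation and the batch 2 library sham. Groups were taken from the hashtag names, and in batch 2 wrong names would exchange the groups. It is not stated if each hashtag replicate came from a separate animal or from pooled animals. The p-values therefore reflect only how far these replicates spread, which could be technical. The study asked how ischaemic injury acts on marrow stem and progenitor cells.

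A B cell that leaves the marrow first carries IgM, and as it matures it makes IgM and IgD from the same transcript by alternative RNA processing, a step that needs Zfp318. Fcer2a encodes CD23, an IgE receptor of mature follicular B cells, and Bank1 an adaptor of the B-cell receptor. Mature B cells circulate between blood, spleen and lymph nodes and also pass through the marrow. They present antigen on MHC class II molecules, whose genes are switched on by Ciita. Earlier precursors carry the pre-B receptor, in which the surrogate light chain (Igll1, Vpreb1, Vpreb2) stands in for the immunoglobulin light chain.

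After the filters 14678 cells remained in batch 1 and 12265 in batch 2. Exactly 1 hashtag was found on 86.0% of filtered barcodes in batch 1 and 90.4% in batch 2. The IgD B cells had a median of 1981 UMIs and 1209 genes per cell, against 8607.5 UMIs and 3231 genes in all other cells. Many of them therefore lie near the minimum of 1000 UMIs. The median over IgD B cells was between 1554 and 2308.5 UMIs in the surgery replicates and between 1675.5 and 2286 UMIs in the sham replicates. The 2 libraries shared 4 kept barcodes, of which 0 were IgD B cells. Scrublet, a doublet caller, marked 1 of 184 IgD B cells in batch 1 and 0 of 189 in batch 2, but it marked only 11.3% and 17.7% of the barcodes with several hashtags.

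The label of a mature B cell was checked against genes outside the gate. Ighm was found in 364 of the 373 cells, Cd74 in 343, H2-Aa in 283, Zfp318 in 120 and Cr2 in 77. Kit, the receptor on which the sort was made, had a UMI in 8 of the 373 cells (2.14%), against 13445 of 26570 other cells (50.6%). Among 352 IgD B cells with at most 6000 UMIs it was in 3. Among IgD-negative B cells of that size, a group defined below, Kit was in 3 of 370. The low Kit share was thus not particular to IgD B cells. Of the gate genes, Ighd was found in 361 cells and Fcer2a in 143. Among cells outside a broad B-lineage gate, which had a median of 9050 UMIs, 1.24% had an Ighd UMI and 0.122% an Fcer2a UMI.

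Class-switched antibody genes were nearly absent. Igha had 1 UMI in all IgD B cells, and Ighg1, Ighg2b, Ighg2c, Ighg3 and Ighe had 0. Surrogate light chain cells held 365 UMIs of Ighg2b. Of 10 plasma cell genes, Jchain and Tnfrsf17 had 0 UMIs, while all 10 summed to between 415 and 840 CPM per replicate. CPM is a gene's UMIs per 1000000 UMIs in the summed cells. Of the germinal centre genes, Gcsam had 0 UMIs, while all 10 listed genes summed to between 672 and 1080 CPM per replicate. Cd5, a B-1 cell marker, had 1 UMI, while the 13 marginal zone and B-1 genes summed to between 326 and 696 CPM per replicate. Of 12 T and NK cell genes, 5 had 0 UMIs and Nkg7 had 197, more than all the others together.

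At the edge of the gate, 140 cells held exactly 2 UMIs of Ighd and Fcer2a, and 337 cells that passed every other condition held exactly 1. Summed over cells, H2-Aa stood at 830 CPM just inside and 126 CPM just outside, and at 2048 CPM in the 233 cells with at least 3 UMIs. Cr2 stood at 65.8 CPM just inside, 13.7 CPM just outside and 173 CPM in cells with at least 3. Mpo, a myeloid granule gene, stood at 674 CPM just inside and 2899 CPM just outside, and at 1059 CPM in cells with at least 3. The cells with 1 UMI thus held the most Mpo and the least H2-Aa and Cr2 of the 3 ranges, while Mpo was higher in cells with at least 3 than in those with 2. These values follow the gate and were not tested.

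The share of IgD B cells among all cells was 0.843% ± 0.264 after surgery and 1.76% ± 0.317 after sham (SD, n = 4 each). In surgery replicates it was 0.779% and 0.553% in batch 1 and 0.849% and 1.19% in batch 2. In sham replicates it was 1.42% and 1.83% in batch 1 and 2.16% and 1.63% in batch 2. Every surgery replicate lay below every sham replicate. The difference was -0.917 percentage points, a ratio of 0.479. A two-sided exact permutation test over the 8 replicates gave p = 0.0286, the smallest it can give. That test exchanged group labels over both libraries together, without regard to batch. Adjusted over the 6 shares compared, that exact p was 0.171, which does not pass 0.05. Within batch 1 the difference was -0.960 points and within batch 2 it was -0.875 points. The exact p of the pooled difference was 0.0571 without batch 2 sham replicate 1. Every surgery replicate still lay below every remaining sham replicate there, and with so few replicates the exact p moves in coarse steps. A lower share of Ighd-led cells after surgery had been seen in these data before, so this is no independent support. The shares are of cells sorted for lack of lineage markers and for cKit, not of whole marrow. Kit had a UMI in 2.14% of IgD B cells. Whether the sort let through IgD B cells to a different degree in each replicate was not tested.

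**Figure D1:**
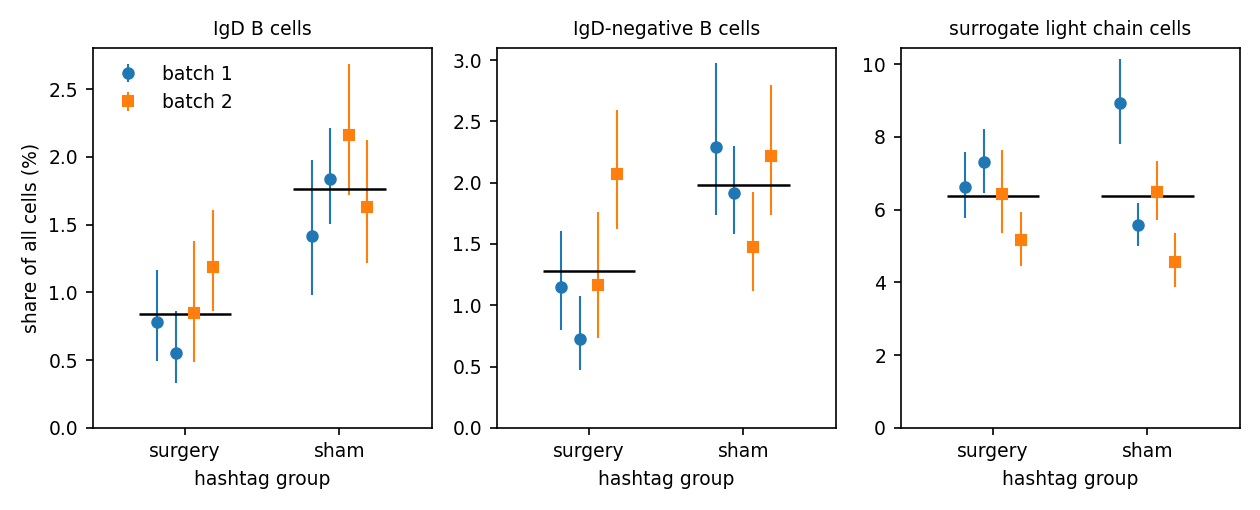
Share of all cells (%) in IgD B cells, IgD-negative B cells and surrogate light chain cells, by hashtag replicate. Points are replicates with exact 95% binomial intervals, which cover counting error only, bars are group means, and colours mark batches. The 4 surgery replicates lie between 0.553% and 1.19% for IgD B cells and the 4 sham replicates between 1.42% and 2.16%.

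Counting error alone left wide intervals at these cell numbers. The 16 IgD B cells of batch 2 surgery replicate 1 gave an exact Clopper-Pearson 95% interval of 0.486% to 1.38%. The 108 cells of batch 1 sham replicate 2 gave 1.51% to 2.21%. Taken among B-lineage cells instead, a broad gate of at least 2 UMIs of 7 B-lineage genes, the share was 3.98% ± 1.10 after surgery and 7.91% ± 2.04 after sham (SD, n = 4 each, exact permutation p = 0.0571). The highest surgery replicate, 5.41%, lay above the lowest sham replicate, 5.31%, so the groups overlapped on this scale. Without batch 1 sham replicate 1 the exact p was 0.0286.

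Like the share of IgD B cells, the shares of other B-cell groups gave differences that did not pass once adjusted over the 6 shares compared. IgD-negative B cells (no Ighd or Fcer2a UMI, but Ms4a1 or Bank1 and at least 2 UMIs of Cd79a and Cd79b) made up 1.28% ± 0.564 after surgery and 1.98% ± 0.371 after sham (SD, n = 4 each, exact permutation p = 0.0857). Their exact permutation p, adjusted over the 6 shares, was 0.171. The adjusted p was the same for IgD B cells, both among all cells and among B-lineage cells. The difference for IgD-negative B cells was -0.699 percentage points, larger than the SD of either group. It was -1.17 points in batch 1, where both surgery replicates (1.15% and 0.727%) lay below both sham replicates (2.29% and 1.92%), and -0.231 points in batch 2, where the groups overlapped. IgD-negative B cells of at most 6000 UMIs made up 0.980% ± 0.483 after surgery and 1.69% ± 0.440 after sham (SD, n = 4 each, exact permutation p = 0.0857). Surrogate light chain cells had at least 3 UMIs of Igll1, Vpreb1 and Vpreb2. They also had at least 1 UMI of Cd79a and Cd79b and no Ighd or Fcer2a UMI. They made up 6.38% ± 0.898 after surgery and 6.39% ± 1.86 after sham (SD, n = 4 each, exact permutation p = 1). Whether the surgery difference differs between these groups was not tested. A gate on Cd3d, Cd3e and Cd3g, chosen after seeing the data, gave T cells at 0.468% ± 0.130 after surgery and 0.586% ± 0.144 after sham (SD, n = 4 each, exact permutation p = 0.229). With Nkg7 in the gate, T and NK cells came to 28.5% and 26.4% (exact permutation p = 0.371 with n = 4 each), so most cells of that gate were there for Nkg7 without 2 Cd3 UMIs.

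The 2 kinds of light chain occurred together in many IgD B cells. A developing B cell normally settles on kappa or lambda, and most mouse B cells settle on kappa. Igkc was found in 317 of 373 IgD B cells (85.0%), Iglc1, Iglc2 or Iglc3 in 299 (80.2%) and both kinds in 255 (68.4%). At least 2 UMIs of each kind were found in 198 cells. Among IgD B cells of at most 6000 UMIs the share with both was 69.3%. Of surrogate light chain cells, 11.9% had Igkc, 0.955% had a lambda UMI and 0.239% had both, at a median of 3417 UMIs. Of cells outside the B-lineage gate, 1.47% had Igkc, 0.712% lambda and 0.0796% both, at a median of 9050 UMIs. Each of those shares was far below the one in IgD B cells. After each cell was thinned to 1000 UMIs, 72.9% of IgD B cells had Igkc, 68.4% lambda and 52.5% both, against 5.19%, 0.597% and 0.119% of surrogate light chain cells. The lambda genes are related copies, and how reads that match more than 1 of Iglc1, Iglc2 and Iglc3 were split is uncertain. The part of doublets, free RNA from other B cells or misassigned reads in the cells with both was not tested.

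**Figure D2:**
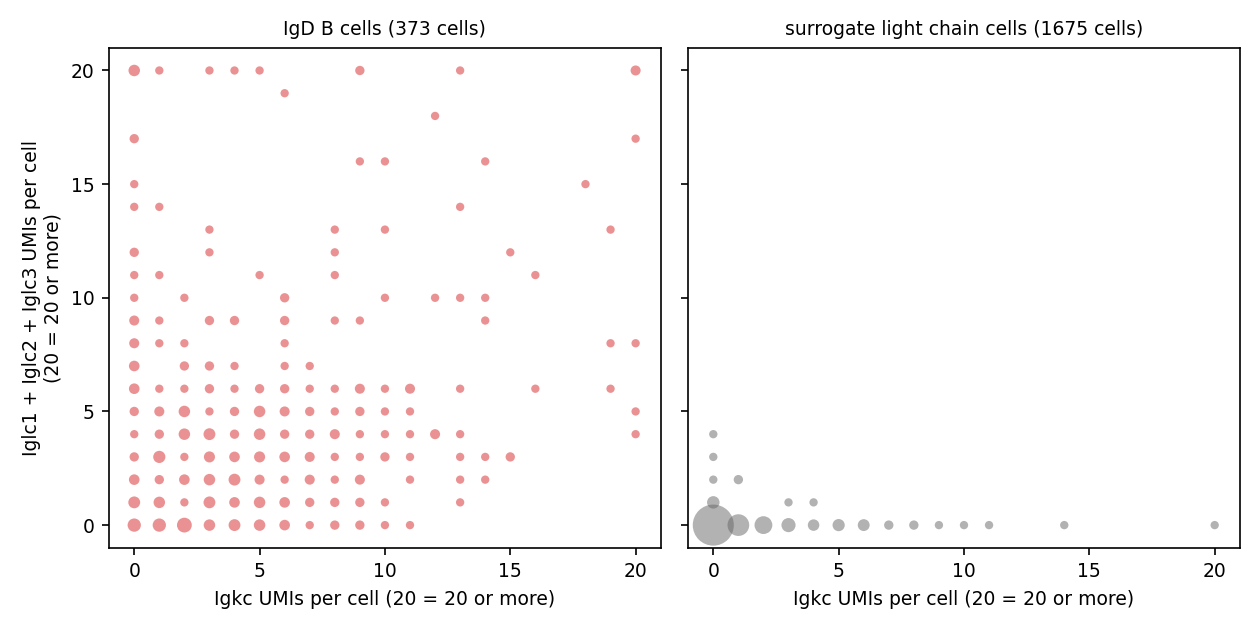
UMIs of Igkc (x axis) and of Iglc1, Iglc2 and Iglc3 together (y axis) per cell, with counts above 20 drawn at 20. A point's size grows with the number of cells at that place. IgD B cells (left, 373 cells) spread over both axes, with 255 cells off both, whereas 4 of 1675 surrogate light chain cells (right) are off both.

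By replicate, the share with both kinds was 47.8% and 57.9% in batch 1 and 75% and 78.6% in batch 2 after surgery, and 67.6% and 64.8% in batch 1 and 69.6% and 76.9% in batch 2 after sham. The surgery and sham replicates overlapped. The IgD-negative B cells had both kinds in 60.2% of cells, and in 68.1% of those with at most 6000 UMIs.

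IgD B cells were next set against IgD-negative B cells of the same replicates. Summed UMIs per replicate were fitted by edgeR's quasi-likelihood test with the replicate as a block, and adjusted p (Benjamini-Hochberg) under 0.05 counts as a call. Of 3452 genes tested outside the gate, 655 were higher in IgD B cells (19%) and 798 were lower (23.1%). The IgD-negative sums hold granule RNA of large cells: the 11 neutrophil genes came to between 14120 and 28589 CPM per replicate in them, and to between 635 and 1099 CPM once cells over 6000 UMIs were left out. That limit was chosen after seeing the data. With it, 370 of 447 IgD-negative and 352 of 373 IgD B cells remained, and 150 of 2009 genes were higher (7.47%) and 139 lower (6.92%). Neither kind of light chain was found in 61 of the 447 IgD-negative cells and in 9 of the 370. Ms4a1 was found in 361 of the 447 and 340 of the 370, and Cd79a in 381 and 350. The label B cell thus describes the smaller IgD-negative cells better than the large ones. Large cells bear on the result, so values with and without them follow for the genes that could be tested both ways. Cr2, Ciita, Pgap1 and H2-DMb1 were not tested without large cells. The groups were set by the gate, so these genes describe what goes with it.

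MHC class II genes were higher in IgD B cells. All 10 tested of 12 listed were called higher, with a median log2 fold change of 2.53 against -0.01 over all genes tested. With cells over 6000 UMIs left out, 7 of 8 tested were called higher and the median was 1.73 against -0.02. H2-Aa, the alpha chain of the I-A molecule, had a lowest, median and highest replicate value of 1114, 1516 and 2400 CPM in IgD B cells and 105.5, 120.0 and 339 CPM in IgD-negative B cells. The 8 replicates did not overlap between the cell groups. How many of the 3452 genes tested likewise did not overlap was not counted, so this is not shown to be particular to H2-Aa. The log2 fold change of H2-Aa was 3.39 ± 0.20 (SE, edgeR adjusted p = 2.4e-10) and 2.61 ± 0.17 without large cells. H2-Eb1, the beta chain of I-E, ran from 889 to 2256 CPM in IgD B cells and from 55.3 to 331 CPM in IgD-negative B cells, with a log2 fold change of 3.46 ± 0.24, and 2.73 without large cells. Cd74, the invariant chain that escorts class II molecules, averaged 5824 ± 1030 CPM in IgD B cells and 1689 ± 464 CPM in IgD-negative B cells (SD, n = 8 each). Its log2 fold change was 1.73 with all cells and 0.83 without large cells.

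The loading factors moved with the chains. H2-DMa, which helps peptides onto class II molecules, was called higher at 0.91 ± 0.21 with all cells and 1.19 without large cells, on the log2 scale. H2-Ob, a modulator of H2-DM found mainly in B cells, was called at 2.62, and 1.77 without large cells. Ciita, the activator of these genes, averaged 119 ± 49.2 CPM in IgD B cells and 17.5 ± 13.4 CPM in IgD-negative B cells (SD, n = 8 each), with a log2 fold change of 2.95 ± 0.34. Marchf1, a ubiquitin ligase that takes class II molecules off the surface, was called at 3.0 and at 2.22 without large cells. Ctss, a protease that trims the invariant chain, was called at 0.81 with all cells and had an edgeR adjusted p of 0.70 without large cells.

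Because these genes moved together, their promoters are shown. The table of RefSeq promoters (GRCm38.p6, 250 bases before to 50 after the start) held 8 of the 12 listed genes, and 6 of these carried the letters TGATTGG on the strand of the gene. That is the core of the Y box, which the factor NF-Y is known to bind. Ctss and H2-DMa carried these letters on neither strand, although H2-DMa was called higher with all cells and without large cells. The same letters occur, on either strand, in 7.82% of 32851 promoters in the table and on the strand of the gene in 4.01%. The lines below show, 5′ to 3′ on the strand of the gene, 67 bases around each match with the motif in capitals. A match describes these letters and shows no binding.
H2-Aa (chr17:34287852-34287918, minus strand): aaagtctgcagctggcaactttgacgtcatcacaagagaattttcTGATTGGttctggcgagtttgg
H2-Eb1 (chr17:34305761-34305827, plus strand): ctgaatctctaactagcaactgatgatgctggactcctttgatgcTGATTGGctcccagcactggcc
H2-DMb1 (chr17:34153083-34153149, plus strand): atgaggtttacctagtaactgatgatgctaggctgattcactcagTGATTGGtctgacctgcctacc
H2-DMb2 (chr17:34145112-34145178, plus strand): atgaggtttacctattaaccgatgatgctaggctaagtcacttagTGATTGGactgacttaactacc
H2-Ob (chr17:34238801-34238867, plus strand): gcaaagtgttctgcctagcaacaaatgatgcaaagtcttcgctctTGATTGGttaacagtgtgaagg
H2-Oa (chr17:34092289-34092355, plus strand): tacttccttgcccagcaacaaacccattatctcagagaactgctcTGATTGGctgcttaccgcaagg

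The motif begins 50 bases before the start site in H2-Aa, 61 in H2-Eb1, 63 in H2-DMb1, 92 in H2-DMb2, 59 in H2-Ob and 45 in H2-Oa. The first 5 of these genes were called higher in IgD B cells with all cells, and H2-Oa was not tested there for low counts.

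Genes of mature follicular B cells were higher in IgD B cells, with fewer calls once large cells were left out. Of 24 tested, 21 were called higher and 0 lower, with a median log2 fold change of 1.26. Without large cells 11 of 23 were called higher and 4 lower, with a median of 0.31. The 4 called lower were Tnfrsf13c at -0.91, Siglecg at -0.56, Cd37 at -0.55 and Pax5 at -0.44 on the log2 scale. Cr2, the complement receptor CD21, ran from 67.5 to 183 CPM in IgD B cells and from 7.07 to 42.4 CPM in IgD-negative B cells, and its log2 fold change was 3.01 ± 0.29. Cd55, which shields cells from complement, was called at 2.6 and at 1.78 without large cells. Zfp318 averaged 143 ± 52.4 CPM in IgD B cells and 34.5 ± 17.6 CPM in IgD-negative B cells (SD, n = 8 each), with a log2 fold change of 2.15, and 1.47 without large cells. Ltb, a lymphotoxin of lymphoid tissue, and Cd83, a membrane protein of activated and mature B cells, were called at 1.98 and 2.21, and at 1.23 and 1.5 without large cells. Bcl2, a survival factor, was called at 1.30 and at 1.22 without large cells.

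Some B-cell genes turned with the large cells, among them Tnfrsf13c of the follicular list. Tnfrsf13c, the BAFF receptor, had a log2 fold change of 0.09 with all cells (edgeR adjusted p = 0.74) and of -0.91 without large cells (edgeR adjusted p = 4.3e-05). Of the 5 immunoglobulin constant genes tested, 3 were called higher with all cells, and 0 higher and 4 lower without large cells. Ighm had a log2 fold change of 0.38 with all cells and -0.59 without large cells, both called. Without large cells it averaged 3617 ± 348 CPM in IgD B cells and 5588 ± 810 CPM in IgD-negative B cells (SD, n = 8 each). Igkc, the kappa constant region, likewise turned, with log2 fold changes of 0.42 and -0.50. For these genes the direction depends on whether large cells are counted.

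Transitional and immature B-cell genes fell in part once large cells were left out. Of 11 tested, 5 were called lower and 0 higher without large cells, with a median log2 fold change of -0.40, whereas with all cells 5 were called higher and 1 lower. Vpreb3, an early B-cell protein that binds immunoglobulin chains, was called at -1.15 without large cells, and at 0.05 with all cells it was not called. Ly6d and Spib, a surface protein and a transcription factor of the B lineage, were called at -1.08 and -1.15 without large cells, and with all cells had log2 fold changes of -0.16 and -0.11 that were not called. Cd24a, which declines as B cells mature, was called at -0.68 without large cells, and at 0.20 with all cells it was not called. Cd93, the marker of immature B cells in mouse, was called in neither, at -0.51 with all cells and -0.53 without large cells. Of 6 early precursor genes tested with all cells, 4 were called higher in IgD B cells and 1 lower, with a median of 0.76. Without large cells 1 of 3 was called higher and 0 lower, with a median of -0.18. Of 13 cell-cycle genes tested with all cells, 6 were called higher and 5 lower. Without large cells 3 of 4 were called higher and 0 lower, with a median of 0.92. B-cell receptor signalling genes gave 13 calls higher and 0 lower of 23 tested with all cells, with a median of 0.67, and 1 higher and 4 lower of 17 tested without large cells, with a median of 0.03. Cd72, an inhibitory co-receptor, and the kinase Lyn were called at -1.39 and -0.69 without large cells, and with all cells, at -0.20 and 0.21, they were not called. Prkcb, a kinase of the pathway to NF-kB, was called higher both ways, at 1.31 with all cells and 0.54 without large cells. Of 3 plasma cell genes tested 2 were called higher and 1 lower with all cells, and 1 of 2 higher without large cells. Of marginal zone and B-1 genes, 2 of 2 tested were called higher with all cells and 0 of 1 without large cells.

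Outside the lists, the 12 genes with the largest called fold changes upward included Pgap1, a remodeller of lipid anchors, Gimap6, a lymphocyte GTPase, and Shisa5. Gimap6 averaged 409 ± 124 CPM in IgD B cells and 51.7 ± 32.9 CPM in IgD-negative B cells (SD, n = 8 each), and its log2 fold change was 2.97, and 2.21 without large cells. The 12 lowest held myeloid genes such as Elane, Prtn3, Ctsg, Mpo, Ly6c2, Fcer1g and Hp. Without large cells 4 neutrophil genes could be tested and 0 were called. Elane then stood at 315 ± 128 CPM in IgD B cells and 255 ± 60.4 CPM in IgD-negative B cells (SD, n = 8 each).

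**Figure D3:**
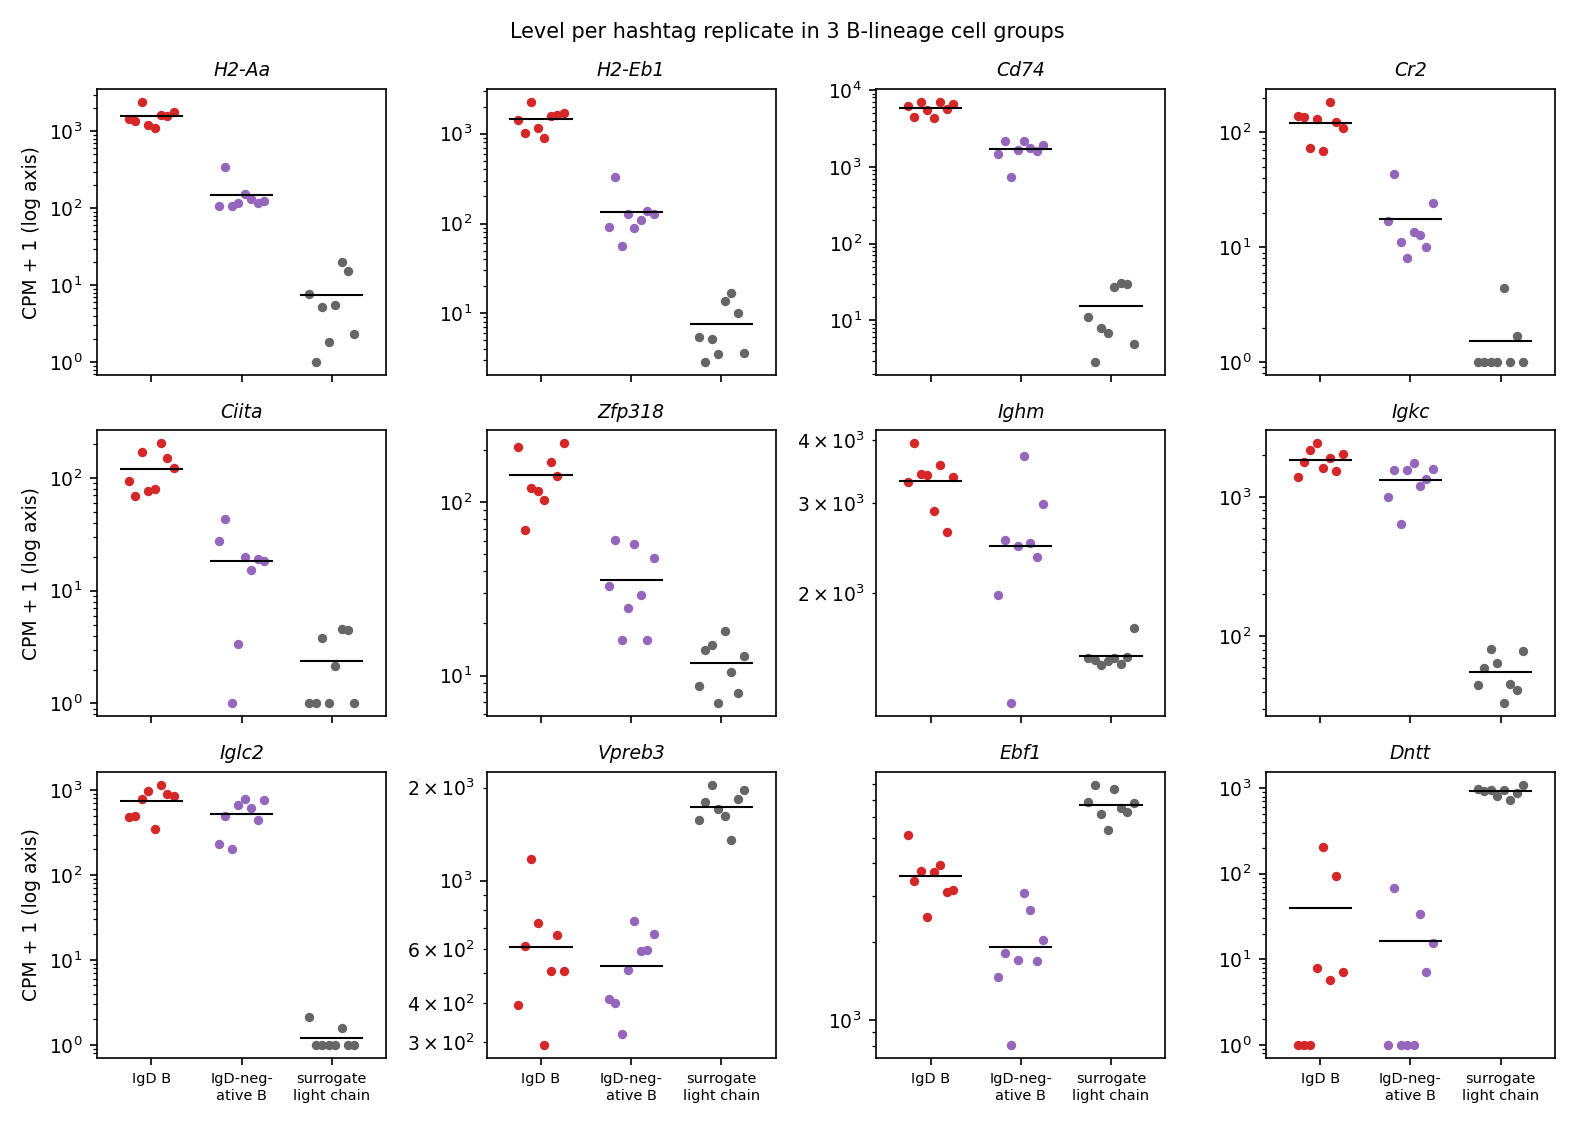
Level of 12 genes in the summed cells of each hashtag replicate (8 points, bar at the mean, CPM + 1 on a log axis) in IgD B cells, IgD-negative B cells and surrogate light chain cells, all cell sizes included. H2-Aa, H2-Eb1 and Cr2 do not overlap between the first 2 groups, and Dntt is highest in surrogate light chain cells. How many other genes likewise do not overlap was not counted.

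Against surrogate light chain cells, the pro-B and pre-B end of the lineage, 1214 of 7096 genes tested outside the gate were higher in IgD B cells (17.1%) and 1376 were lower (19.4%). Without cells over 6000 UMIs 846 of 4806 were higher (17.6%) and 799 lower (16.6%). All 11 MHC class II genes tested were called higher, with a median log2 fold change of 4.54 against -0.05 over all genes. Of 29 follicular genes tested 28 were called higher, with a median of 3.83. H2-Aa averaged 1562 ± 403 CPM in IgD B cells and 6.37 ± 6.83 CPM in surrogate light chain cells (SD, n = 8 each). Cd74, at 5824 ± 1030 CPM in IgD B cells, averaged 14.2 ± 11.9 CPM in surrogate light chain cells (SD, n = 8 each) and was called at 8.66 ± 0.21.

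Neutrophil RNA also differed between these groups: 7 of 7 neutrophil genes tested were called higher in IgD B cells, and 4 of 5 without large cells. The 11 listed genes summed to between 928 and 18147 CPM in IgD B cells and between 545 and 4150 CPM in surrogate light chain cells, and without large cells to between 907 and 1400 CPM and between 718 and 892 CPM. Cell-cycle genes were called lower in 10 of 15 tested and higher in 0, whereas without large cells 3 of 13 were called lower and 4 higher. Without large cells 10 of 10 MHC class II genes tested were called higher, with a median log2 fold change of 5.91, and 26 of 27 follicular genes, with a median of 3.71. Of the early precursor genes 11 of 11 were then called lower, with a median of -2.0.

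Light chain genes and receptors were among the largest differences. Igkc averaged 1846 ± 344 CPM in IgD B cells and 54.9 ± 17.6 CPM in surrogate light chain cells (SD, n = 8 each), with a log2 fold change of 5.12. Iglc1 and Iglc2 had 2 UMIs each in all surrogate light chain cells, so no fold is given, and in IgD B cells they averaged 481 ± 108 and 754 ± 282 CPM (SD, n = 8 each). Fcmr, the IgM Fc receptor, and Btla, an inhibitory receptor, were called at 7.77 and 7.02. Gpr183, which guides B cells within lymphoid organs, had 131 UMIs in IgD B cells and 3 in surrogate light chain cells. Of 13 survival genes tested 10 were called higher, among them Bcl2 at 3.02 and Tnfrsf13c at 2.63. Of 15 homing genes 10 were called higher and 2 lower. Ccr7, a chemokine receptor for entry into lymph nodes, was called at 3.99, and S1pr1, which guides cells into blood, at 2.66. Itga4, an integrin subunit by which precursors hold to marrow stroma, was called at -0.65.

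Genes of early precursors were lower in IgD B cells, with 11 of 14 tested called lower, 0 higher and a median log2 fold change of -1.18. Dntt, which adds nucleotides at antibody gene joints, averaged 39.2 ± 73.3 CPM in IgD B cells and 919 ± 114 CPM in surrogate light chain cells (SD, n = 8 each), and was called at -4.36 ± 0.29. Lef1 and Erg, transcription factors of precursors, were called at -3.98 and -3.94. Il7r, the receptor for interleukin 7, was called at -1.41. Rag1, a subunit of the recombinase listed with the immature genes, was called at -2.76. Ebf1, a factor that commits cells to the lineage, was called at -0.92, while Pax5, which holds them to it, was called at 0.69. Ikzf3, a factor of later B cells, was called at 4.48. Of 23 B-lineage transcription factors 20 were called higher and 2 lower. Blnk, a linker of the pre-B receptor, was lower at -0.88, whereas the kinases Syk, Blk and Lyn were higher at 1.66, 2.52 and 1.80. Among the 12 lowest outside the lists were Gfra2, Arpp21, Ust and Csgalnact1, each under 10 CPM on average in IgD B cells.

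The IgD B cells were not uniform. A cut at 5 UMIs of 15 cell-cycle genes left 38 of 352 IgD B cells of at most 6000 UMIs above it, with 4 cells at 4 UMIs and 1 cell at 5. These 38 cells had a median of 4151.5 UMIs, against 1849.5 UMIs in the other 314. Summed over cells, they held 1652 CPM of Cd74, 374 CPM of H2-Aa and 39.3 CPM of Cr2, against 8685, 2296 and 193 CPM in the others. Rag1 stood at 105 CPM against 9.63, Il7r at 302 CPM against 25.7, Cd93 at 275 CPM against 46.6 and Cd24a at 1587 CPM against 480. Ighd stood at 590 CPM against 1760, while Ighm was close, at 3580 and 3625 CPM. The cells above the cut thus carry more RNA of immature B cells and less of mature ones, so the label mature describes the 314 cells better than the 38. The cut depends on depth, is a range rather than a type, and was chosen after seeing the data, with no test.

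**Figure D4:**
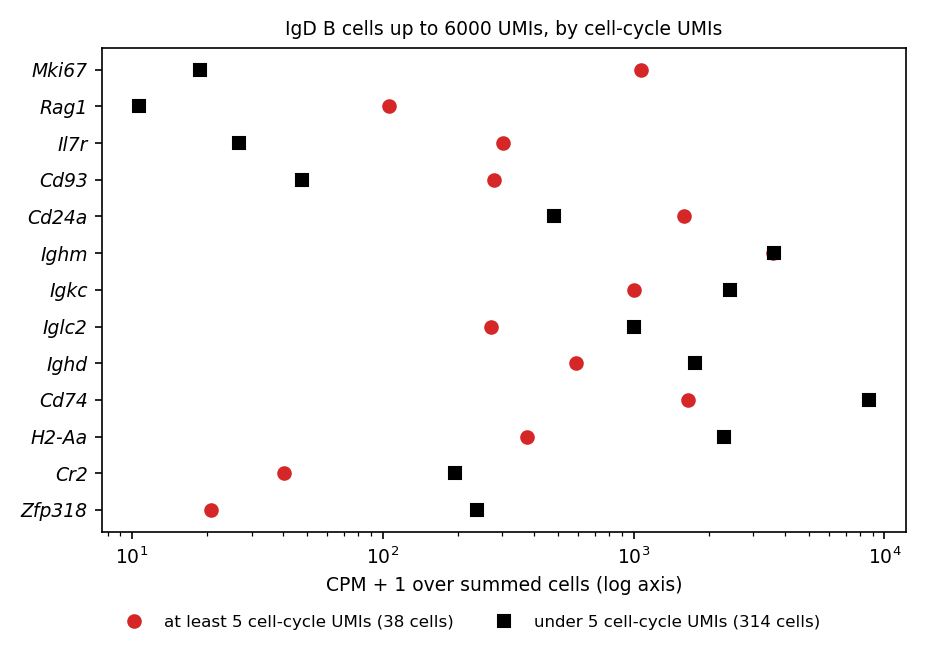
Level of 13 genes (CPM + 1, log axis) summed over IgD B cells of at most 6000 UMIs with at least 5 cell-cycle UMIs (38 cells, circles) and with fewer (314 cells, squares). Rag1, Il7r, Cd93 and Cd24a are higher in the first, and Ighd, Cd74, H2-Aa, Cr2 and Zfp318 lower.

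The cells above that cut were 8.70% and 27.8% of IgD B cells of at most 6000 UMIs in batch 1 and 6.67% and 16.2% in batch 2 after surgery. After sham they were 24.2% and 6.67% in batch 1 and 5.71% and 9.80% in batch 2. The groups overlapped. The 21 IgD B cells over 6000 UMIs, 7 of them after surgery and 14 after sham, had 20 cells above the cut and 13 with at least 5 neutrophil UMIs.

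Within IgD B cells, surgery was compared with sham over 2486 genes with batch as a term. Of these 0 were called higher (0%) and 3 lower (0.121%) by edgeR, while 115 had an unadjusted p under 0.05. The 3 were Elane, Mpo and Ctsg, which encode neutrophil elastase, myeloperoxidase and cathepsin G, enzymes of neutrophil granules. Elane stood at 116 and 272 CPM in batch 1 and 336 and 340 CPM in batch 2 after surgery, against 4841 and 361 CPM in batch 1 and 2326 and 3418 CPM in batch 2 after sham. Thus 3 sham replicates stood high, and batch 1 sham replicate 2 was close to the surgery replicates. Its log2 fold change was -3.35 ± 0.51 (SE, edgeR adjusted p = 0.0041). Mpo changed by -2.25 ± 0.38 and Ctsg by -3.41 ± 0.60, with edgeR adjusted p of 0.0097 and 0.011.

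A few cells carried most of these UMIs. In batch 1 sham replicate 1 a single cell held 392 of the 430 Elane UMIs, in batch 2 sham replicate 1 a single cell held 563 of 645, and in batch 2 sham replicate 2 a single cell held 540 of 565. Of all 1798 Elane UMIs in IgD B cells, 1548 were in the 21 cells over 6000 UMIs. With those cells left out, Elane averaged 267 ± 110 CPM after surgery and 363 ± 142 CPM after sham (SD, n = 4 each). Its log2 fold change was then -0.37 ± 0.31 and Mpo's was -0.11 ± 0.27, and 0 of 1731 genes were called (0%), with 82 at an unadjusted p under 0.05. The 11 neutrophil genes summed to between 928 and 1245 CPM after surgery and between 1055 and 18147 CPM after sham, and to between 991 and 1189 CPM and between 907 and 1400 CPM without large cells. The count of calls was also 0 without batch 2 surgery replicate 2 and without batch 2 sham replicate 2, and it was 16 without batch 1 sham replicate 2 and 5 without batch 1 sham replicate 1.

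**Figure D5:**
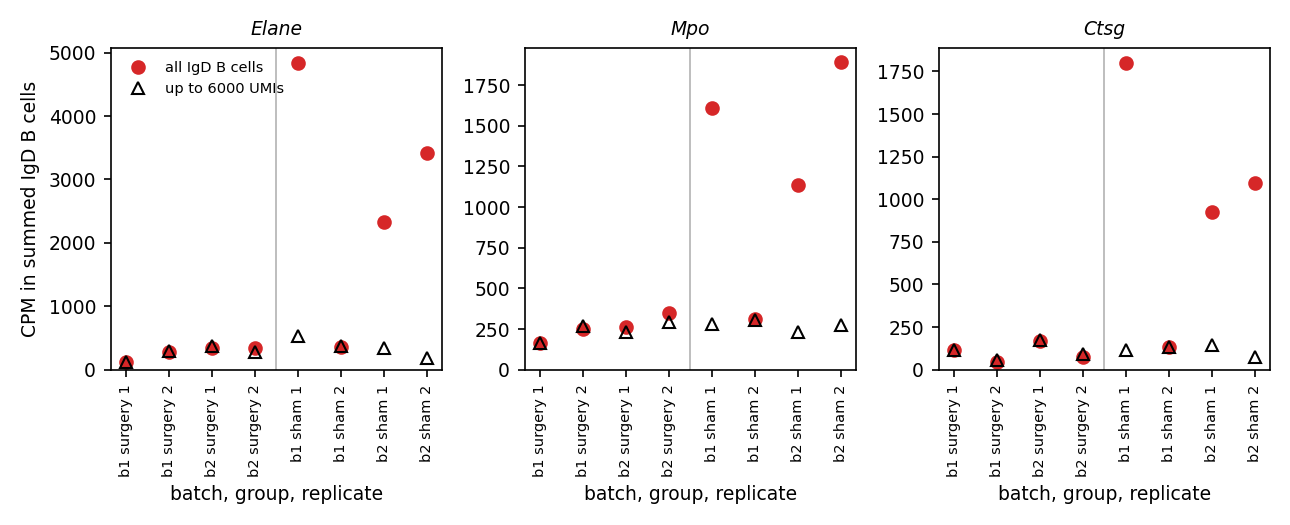
Level of Elane, Mpo and Ctsg (CPM, linear axis) in the summed IgD B cells of each replicate, with 4 surgery replicates left of the line and 4 sham replicates right of it. Filled points hold all IgD B cells, and 3 sham replicates stand high, with Elane at 2326 to 4841 CPM. Open triangles leave out cells over 6000 UMIs, and the replicates then lie together.

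Genes of B cells gave no call between surgery and sham. Of 27 follicular genes tested 0 were called, with a median log2 fold change of -0.09 against 0.00 over all genes tested. Of 11 MHC class II genes 0 were called, with a median of -0.22. H2-Aa stood at 1459 and 1358 CPM in batch 1 and 2400 and 1198 CPM in batch 2 after surgery, against 1114 and 1613 CPM in batch 1 and 1572 and 1778 CPM in batch 2 after sham. The groups overlapped. H2-DMa stood at 139 and 90.5 CPM in batch 1 and 120.0 and 129 CPM in batch 2 after surgery, against 158 and 249 CPM in batch 1 and 191 and 218 CPM in batch 2 after sham. These did not overlap, and the log2 fold change of -0.79 did not pass the test (edgeR adjusted p = 0.96). H2-DMa was 1 of the 115 genes of 2486 with an unadjusted edgeR p under 0.05. How many of the 2486 genes likewise did not overlap was not counted, so the separation is not shown to be particular to H2-DMa.

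Ighm averaged 3523 ± 282 CPM after surgery and 3121 ± 432 CPM after sham (SD, n = 4 each), and Igkc 1933 ± 450 and 1760 ± 230 CPM. Ighd, a gate gene, averaged 1367 ± 334 CPM after surgery and 1213 ± 197 CPM after sham (SD, n = 4 each). None of the 20 B-cell receptor signalling genes tested, the 9 homing genes, the 9 cell-cycle genes, the 3 interferon-stimulated genes or the 4 oxygen and stress genes was called. Of 5 tested genes from a list that earlier results of these data had marked in progenitors, 0 were called. The median log2 fold change was 0.37 for the cell-cycle genes and 0.21 for 11 transitional genes. Erythroid RNA was uneven, with a sum of 9 genes between 170 and 3463 CPM after surgery and between 188 and 516 CPM after sham, and between 194 and 261 CPM and between 236 and 555 CPM without large cells. Sums per replicate held between 41669 and 146945 UMIs after surgery and between 88832 and 277268 UMIs after sham.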

How the data were processed

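PIPseq libraries of sorted marrow cells were analysed from the matrices the authors deposited, which hold unnormalised UMI counts for each gene in each barcode. Per the submitters' processing notes, Cell Ranger and GRCm38 were used. The version, the use of strand and the handling of near-identical genes are not given in the sources used. Hashtag counts, 22.2% and 16.1% of all counts in batch 1 and 2, were kept out of gene totals.

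The members, gene lists and tests were chosen with earlier results of these data known. Cells were gated on raw UMIs. Counts were summed per hashtag replicate and cell group and tested in edgeR 4.0.16 (R 4.3.3) with filterByExpr and TMM, after the scripts were tested on simulated data. Surgery was compared with sham with batch as a term, and cell groups with the replicate as a block. For shares, an exact permutation test (two-sided) was run over the 8 replicates, without regard to batch. CPM were summed UMIs over total UMIs, without TMM factors. Scrublet calls and cells over 6000 UMIs were kept in the main values. Gene names were those of the files.

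Between surgery and sham, up to 10 called genes in each direction were named by size of fold change, if their mean reached 50 CPM and both batches had one sign. Between cell groups, up to 12 in each direction were named if the higher group reached 100 CPM and all 8 replicates had one sign. Members of the lists were named too. Same-numbered surgery and sham replicates did not deviate together. Their correlation over genes in all other cells was 0.01 in batch 1 and -0.02 in batch 2. Intervals and floors cover counting error only. Python 3.11.15, scipy 1.17.1 and scanpy 1.11.5 were used. Alternatives included DESeq2 1.42.0, no low-count filter, other gate minimums, thinning to 1000 UMIs and leaving out each replicate.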

Additional observations from a re-analysis of the deposited data

Results flagged for a closer look

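Ighd in IgD B cells had 1 sham replicate apart from the others: batch 1 sham replicate 2 stood at 1505 CPM, against 1092, 1100 and 1155 CPM in the other sham replicates. Ighd is a gate gene, and 28 such groups of 4 replicates were examined, of which chance would mark about 1 in 20.

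Barcodes with several hashtags, used in no comparison, also held cells that passed the gate. There were 11 of 602 in batch 1 (1.83%, exact 95% interval 0.916% to 3.25%) and 5 of 322 in batch 2 (1.55%, exact 95% interval 0.506% to 3.59%). Both lie above the share that a count of 0 would allow, 0.498% and 0.932%. Among barcodes with 1 hashtag the shares were 1.25% and 1.54%. Among barcodes with no hashtag, 1 of 1788 in batch 1 and 1 of 986 in batch 2 passed the gate.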

How the results depend on the processing

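The difference in the share of IgD B cells among all cells, -0.917 percentage points, was negative under every alternative run, but its exact p missed 0.05 in some. It was -1.09 points with a gate of at least 1 UMI of Ighd and Fcer2a, -0.544 with at least 3, and -0.797 with at least 1500 UMIs per cell, a limit chosen after seeing the data. Leaving out each replicate gave -1.03 to -0.783. Among B-lineage cells the difference passed 0.05 with a hashtag minimum of 400 (-3.94 points) and with cells over 6000 UMIs left out (-3.77 points), and leaving out each replicate gave -4.80 to -3.32.

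The count of 3 genes between surgery and sham became 24 without a low-count filter, 0 after thinning to 1000 UMIs (27 at an unadjusted p under 0.05 by edgeR), 0 with cells over 6000 UMIs left out, and between 0 and 16 with a replicate left out. DESeq2 called 2. Between IgD B cells and IgD-negative B cells the count of 1453 became 185 after thinning and 289 with cells over 6000 UMIs left out. In that alternative Elane turned to 0.27, Prtn3 to 0.11 and Mpo to 0.054 on the log2 scale. The neutrophil sums given in the report moved with those cells, and their part was not tested. Against surrogate light chain cells the count of 2590 became 1034 and 1645, and fewer genes were tested in both alternatives. All 24 genes named by rule there, and 20 of 24 against IgD-negative B cells, kept direction and call in every alternative that tested them.

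With the replicate number as a block, the share among all cells gave -0.917 points with an exact p of 0.125, the smallest that 4 pairs allow, and the genes called between surgery and sham numbered 8. Same-numbered replicates did not deviate together over genes. With 2 replicates of each group in a batch, that cannot show whether the numbers pair the samples. Depth limits what these cells can show: 3 in 4 held at most 2628 UMIs.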
